A study of Mus musculus with 9 samples.

Results

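Tazemetostat, an inhibitor of the histone methyltransferase EZH2, was compared with its vehicle DMSO in p53-null, PDGF-BB-expressing oligodendrocyte progenitor cells (OPCs) of the mouse, grown in culture. The comparison used 6 of the 9 libraries of the series, chosen by their labels: 3 named BB-p53n EZH2i and 3 named BB-p53n DMSO. All 9 libraries came from primary OPC lines labelled Trp53 -/-, kept in SATO medium with 10 ng/mL PDGF-AA, the ligand that keeps OPCs dividing. The BB-p53n EZH2i cells received 5 µM tazemetostat for 48 hours in that medium, and the BB-p53n DMSO cells received DMSO diluted 10000-fold. The remaining 3 libraries, p53n, held p53-null OPCs without PDGF-BB, labelled control, and served to estimate the spread and as a side reference. Polyadenylated RNA was sequenced as 150 bp read pairs. The labels do not name the construct that carries PDGF-BB, how many lines or clones were used, or whether replicates were grown separately. The p-values therefore rest on the spread among the 9 libraries alone, and that spread may be technical.

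EZH2 is the catalytic subunit of Polycomb repressive complex 2 (PRC2), which methylates lysine 27 of histone H3 and keeps developmental genes silent together with Polycomb repressive complex 1 (PRC1). Tazemetostat competes with the methyl donor at the active site, so it blocks the enzyme without removing the gene's transcript, and histone marks already in place are lost as they are diluted or replaced. OPCs are the dividing precursors of myelin-forming oligodendrocytes, they depend on PDGF receptor alpha for growth, and EZH2 is known to be high in them and to hold back genes of other lineages.

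Total counts were between 32727333 and 34557109 in BB-p53n DMSO and between 19471768 and 25008897 in BB-p53n EZH2i. Genes of the mitochondrial genome took 2.44% to 2.625% of the counts in DMSO and 1.34% to 1.54% in EZH2i. Defining OPC markers were present in both groups. Per kilobase of exon, in CPM (the TMM-scaled share of the counts, with SD, n = 3), Olig1 was at 471 ± 1.84 in DMSO and 711 ± 35.6 in EZH2i, and Olig2 at 318 ± 8.01 and 354 ± 34.6. Sox10 was at 98.2 ± 5.37 and 150 ± 3.15, Cspg4 at 42.7 ± 2.34 and 56.7 ± 2.47, and Pdgfra at 97.8 ± 2.08 and 51.3 ± 3.74. Sox10 was at 0.724 ± 0.0959 in the p53n libraries, so they stood apart from both groups in this marker. On the same scale Gfap and Aqp4 of astrocytes were at 0.239 ± 0.0656 and 0.0113 ± 0.0057 in DMSO and at 0.106 ± 0.0726 and 0 in EZH2i, Mog of mature oligodendrocytes at 0.0938 ± 0.0391 and 0.0279 ± 0.0484, and Cx3cr1 of microglia at 0.00657 ± 0.0114 and 0. The neuronal gene Rbfox3 was low but higher in EZH2i, at 0.229 ± 0.0152 and 1.06 ± 0.175. Astrocyte and neuron lists also hold genes abundant in OPC cultures, and their summed levels were 2476 to 2537 and 2069 to 2227 CPM in DMSO and 2310 to 2501 and 878 to 981 CPM in EZH2i. RNA came from whole cultures, so fewer cells of a type and less RNA per cell cannot be told apart. No gene was deleted in this comparison, so the transcript of Ezh2 does not check the treatment.

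Between the groups the balance of the whole transcriptome shifted with the composition of the transcripts. GC-poor and long transcripts were lower in EZH2i and GC-rich and short transcripts were higher. In the lowest of 10 equal classes of genes by GC content, 89.6% passed the test as lower and 3.2% as higher, and in the highest class 1.56% and 90.0%. Each library carried its own slope: against the mean of all 9 libraries, the highest GC class minus the lowest was -0.66, -0.40 and -0.55 on the log2 scale in the DMSO libraries and 1.25, 1.78 and 1.64 in the EZH2i libraries. It was -0.95, -0.95 and -1.12 in p53n, so the 3 EZH2i libraries stood apart from the other 6 and did not overlap with them. The same difference for length was between 0.33 and 0.46 in DMSO and between -0.98 and -1.13 in EZH2i. The slope and the treatment went together in every library, so a technical slope and a response of GC-poor and long genes cannot be told apart.

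**Figure D1:**
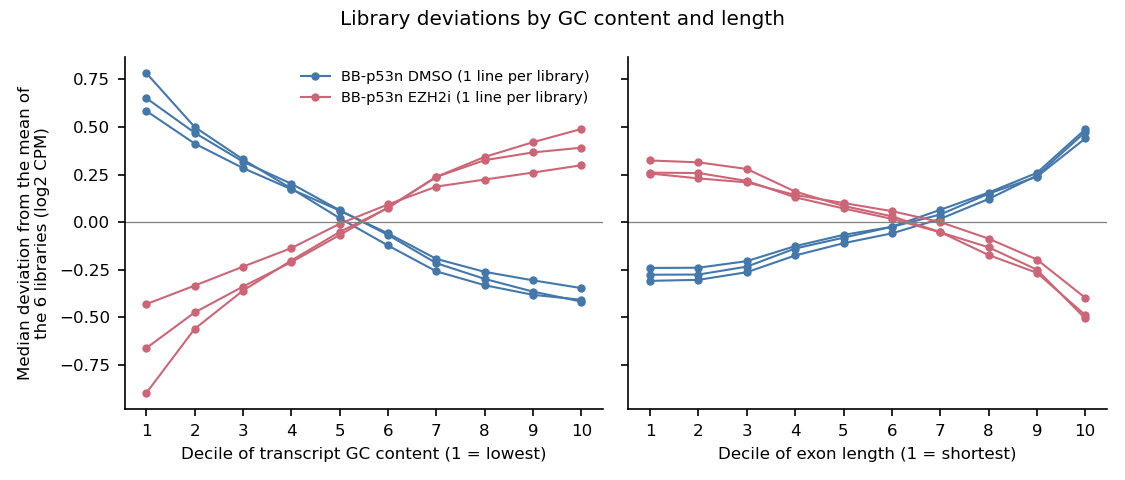
Median deviation of each library from the mean of the 6 PDGF-BB libraries (log2 CPM, y axis) over 12793 genes in 10 equal classes of transcript GC content (left) and of exon length (right), with 1 line per library. The DMSO lines run down and the EZH2i lines run up with GC content, and the order is opposite for length.

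For this reason each change is given as a plain log2 fold change (EZH2i over DMSO) and as a corrected one, in which each library's smooth trend on GC content and exon length was removed before the same test. Both used edgeR's quasi-likelihood test with Benjamini-Hochberg adjustment over all tested genes and a threshold of 0.05. In the plain fit 72.9% of 17001 tested genes passed, 37.3% as higher and 35.6% as lower. In the corrected fit 57.8% of 16652 genes passed, 28.9% as higher and 28.8% as lower. In both fits and in the same direction 3366 genes (20.2%) were higher and 3515 (21.1%) lower, 41.3% together, and of these 487 (2.92%) and 987 (5.93%) differed at least 2-fold in both. In the plain fit alone 10.2% were at least 2-fold higher and 19.5% at least 2-fold lower, and in the corrected fit 5.99% and 7.82%. The 3 EZH2i libraries did not overlap the 3 DMSO libraries in 75.3% of genes by plain CPM and in 62.7% by corrected CPM, so separate groups were common. Another 468 genes (2.81%) passed as higher in the plain and lower in the corrected fit, and 708 (4.25%) the other way. The shares in this paragraph are the background for every count of list members below and for groups without overlap. Below, "rose" and "fell" are used for genes that passed in both fits, unless a fit is named, and a pair of values such as 2.19 and 2.69 gives the plain and then the corrected log2 fold change.

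**Figure D2:**
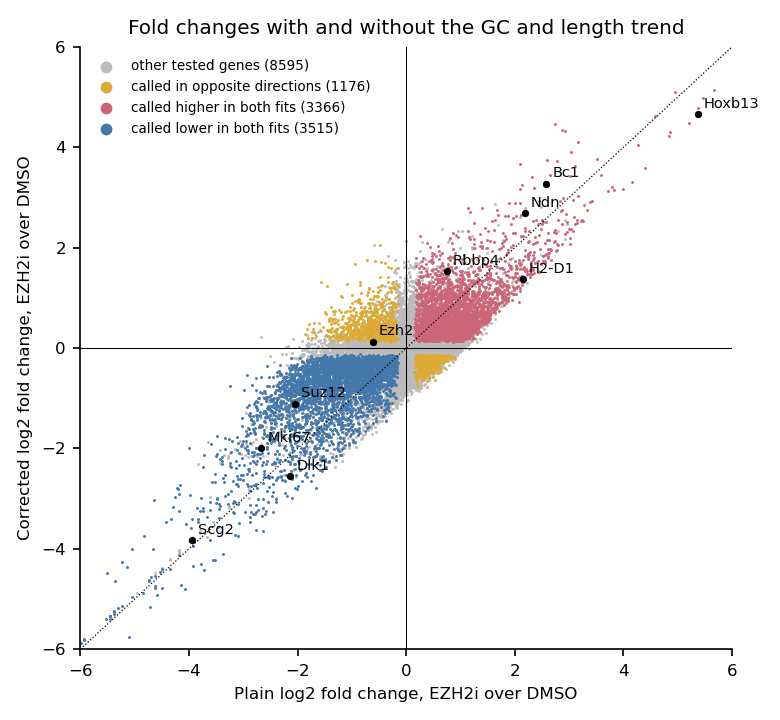
Plain log2 fold change (x axis) against the corrected one (y axis) for 16652 genes, coloured by their calls, with the line of equality dotted and 13 genes beyond the axes not drawn. Hoxb13, Ndn, Scg2 and Dlk1 lie within 1 unit of the line, Suz12 changes less after the correction, and the genes called in opposite directions lie in the upper left and lower right.

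The genes that rose the most in both fits had mixed functions. Bc1, a short noncoding RNA gene of neuronal dendrites (chromosome 7, 144468202 to 144468374, GRCm39), was at 62.0, 46.5 and 61.5 CPM in the DMSO libraries and at 264, 494 and 261 CPM in the EZH2i libraries. All EZH2i libraries lay above all DMSO libraries, with EZH2i library 2 the highest, and edgeR gave a change of 2.58 (SE 0.30, adjusted p = 1.6e-04) and 3.28. Ndn, the imprinted necdin gene whose product restrains growth (chromosome 7, 61996317 to 62000010), went from 12.1, 12.1 and 11.4 CPM to 52.6, 53.8 and 55.8 CPM. The libraries within each group were nearly equal, and the change was 2.19 (SE 0.08, adjusted p = 2.6e-14) and 2.69, while p53n cells were at 116 ± 9.15 CPM (SD, n = 3). Chchd7, which encodes a protein of the mitochondrial intermembrane space, rose by 2.01 and 2.90. Kyat3, a kynurenine aminotransferase gene, rose by 1.97 and 2.30, and Sqor, the gene of a sulfide-oxidizing enzyme of mitochondria, by 2.44 and 2.46.

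Several of the strongest rises started from low levels. Ppp1r1a, an inhibitor of protein phosphatase 1 known from striatal neurons, was at 0.358 to 0.709 CPM in DMSO and at 3.61, 3.73 and 4.76 CPM in EZH2i, a change of 3.02 and 2.19. Paqr7, a membrane progesterone receptor gene, was at 0.0597 to 0.185 CPM and then at 0.674, 1.28 and 1.28 CPM, a change of 2.87 (SE 0.42) and 2.48. Both groups of libraries were separate for Ppp1r1a and Paqr7, and the standard errors are wide where the DMSO libraries had few counts. Paqr7 lay below a log2 CPM of 1 in all 6 libraries compared. It met the rule for the largest changes, an average of at least 1 over all 9 libraries, only through p53n. Ly6h and Lynx1, which encode small surface proteins that modulate nicotinic receptors, rose by 2.63 and 2.16 and by 2.61 and 1.98. Slc7a4, annotated as an amino acid carrier, rose by 2.72 and 2.11, Shroom1 by 2.75 and 2.13, and St8sia3, a sialyltransferase gene of the brain, by 2.31 and 3.4.

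Scg2, which encodes the secretory granule protein secretogranin 2 (chromosome 1, 79412386 to 79417837), fell further than any other gene named by the same rule. It was at 64.4, 73.5 and 62.0 CPM in DMSO and at 4.56, 3.30 and 5.00 CPM in EZH2i. The lowest DMSO library stood far above the highest EZH2i library, with a change of -3.95 (SE 0.13, adjusted p = 7.2e-15) and -3.82, and p53n cells were at 19.4 ± 2.12 CPM. Mki67, the gene of the proliferation antigen Ki-67 (chromosome 7, 135291513 to 135318090), was at 1225, 899 and 928 CPM and then at 170, 150 and 160 CPM. DMSO library 1 was the highest, and no EZH2i library came near any DMSO library, with changes of -2.67 and -1.99. Dlk1, an imprinted Notch-like ligand gene, went from 66.9, 78.7 and 65.1 CPM to 15.1, 14.7 and 18.2 CPM, with -2.14 and -2.55.

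The other falls of this kind were in genes of mixed function. Armcx4 was nearly equal among libraries of a group, at 253, 246 and 246 CPM and then 64.9, 60.2 and 60 CPM. Paxbp1, which encodes a partner of the muscle stem cell factors Pax3 and Pax7, was at 59.6, 42.7 and 48.6 CPM and then 11.8, 7.56 and 9.99 CPM. Both fell in every EZH2i library, by more in the plain fit for Paxbp1 (-2.35 and -1.94) and by similar amounts for Armcx4 (-2.01 and -1.95). Kcnh5, a potassium channel gene, changed by -2.03 and -2.16, Far2, a fatty acyl-CoA reductase gene, by -2.76 and -2.31, Slc24a5, a cation exchanger gene of pigment cells, by -2.76 and -2.25, and Ppp3r2, a calcineurin subunit gene, by -3.01 and -2.54. The zinc finger genes Zfp971 (-2.93 and -2.04) and Zfp948 (-2.92 and -2.03) and the pseudogene Stxbp3-ps (-2.55 and -1.90) completed the group. The last 3 belong to families with similar copies, so their counts are uncertain where reads could not be assigned to 1 copy.

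The transcripts of the targeted complex were read next. Of 13 tested PRC2 subunit genes 4 were higher and 8 lower in the plain fit, with a median of -0.45, against a median of 0.02 over all tested genes, and 4 and 6 in the corrected fit, with a median of 0.07 against -0.01. In both fits 3 rose and 5 fell. Ezh2 itself was at 171, 170 and 173 CPM in DMSO and at 116, 113 and 107 CPM in EZH2i. The plain change was -0.62 (SE 0.06, adjusted p = 2.5e-08), but the corrected one was 0.13 (adjusted p = 0.067), so no direction held in both fits. Without EZH2i library 1 the corrected value passed as higher (0.16, adjusted p = 0.030). Ezh1, the second H3K27 methyltransferase, was at 14.7, 14.2 and 14.4 CPM and then 17.0, 18.9 and 15.3 CPM. Its change of 0.24 (adjusted p = 0.044) and 0.18 (adjusted p = 0.12) is marginal: the plain call was lost without any 1 of the libraries DMSO 1, 2 or 3 or EZH2i 1 or 2 (0.17 to 0.25), and the corrected value passed without EZH2i library 3 (0.25, adjusted p = 0.050).

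Suz12, the scaffold subunit of PRC2, was at 210, 173 and 183 CPM in DMSO and at 59.5, 33.0 and 43.6 CPM in EZH2i, without overlap, a change of -2.05 (SE 0.19) and -1.11. Eed, the subunit that reads the H3K27me3 mark, went from 53, 49.9 and 55.2 CPM to 40.8, 38.0 and 36.5 CPM, a smaller fall of -0.45 and -0.37. Rbbp4, a histone chaperone shared with other complexes, moved the other way, from 399, 449 and 441 CPM to 675, 806 and 678 CPM, with 0.74 and 1.53. Among accessory subunits, Epop and Phf19 rose (1.42 and 0.70; 0.81 and 0.32). Lcor, whose locus also encodes an accessory subunit, fell from 35.9, 34.8 and 37 CPM to 11.4, 8.04 and 9.94 CPM (-1.86 and -0.48), and Jarid2 fell as well (-0.71 and -0.34; -0.08 and not passing with a trend on length only).

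Of 24 PRC1 subunit genes 12 were higher and 10 lower in the plain fit (median 0.13), 10 and 8 in the corrected fit (median 0.11), and 8 rose and 5 fell in both. Phc2 and Scmh1 rose (1.07 and 0.51; 0.58 and 0.67), and Phc3, a paralogue of Phc2, fell (-1.92 and -0.57). Of 15 genes of the opposing machinery, the H3K27 demethylases and acetyltransferases and the trithorax-type writers, 2 were higher and 12 lower in the plain fit, 1 and 13 in the corrected fit, and 0 rose and 11 fell in both, with medians of -1.19 and -0.72. Setd2, the gene of an H3K36 methylating enzyme, went from 192, 165 and 177 CPM to 38.6, 37.0 and 38.8 CPM. Every EZH2i library lay far below every DMSO library for this gene, and the change was -2.22 and -1.21. Ash1l and Kmt2c, both methyltransferases of active chromatin, fell by similar amounts (-2.21 and -1.16; -2.11 and -1.15), and Ep300, an H3K27 acetyltransferase, fell less in the plain fit (-1.23 and -0.91). These genes are long: the median exon length of the list was 14273 bases, against 5698 for the PRC2 list. With only a trend on length removed, Ep300 stood at -0.28. Over all alternative settings the corrected values ranged from -1.51 to -1.16 for Setd2, from -1.66 to -1.15 for Ash1l and from -1.87 to -0.88 for Kmt2c. Whether length underlies these falls was not tested.

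Hox genes encode the transcription factors that set position along the body axis and are classical targets of PRC2. All 39 Hox genes were accounted for. In DMSO 28 of them had at most 10 counts over the 3 libraries, and 11 had more. Of the 28 near-silent genes, 6 reached at least 20 counts over the EZH2i libraries: Hoxb13, Hoxc4, Hoxc9, Hoxc10, Hoxd9 and Hoxd13. Only Hoxb13, Hoxc4 and Hoxd13 had enough counts to be tested. Near-silent in DMSO and without a count in p53n, these 3 could pass the filter for testing only through their EZH2i libraries.

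Hoxb13 (chromosome 11, 96085142 to 96088273) received 1, 1 and 4 counts in the DMSO libraries and 62, 55 and 56 in the EZH2i libraries, a fitted change of 5.37 and 4.66. Hoxd13 (chromosome 2, 74498654 to 74501943) received 0, 2 and 2 counts and then 21, 31 and 16, with 4.58 and 4.62. Hoxc4 received 0, 0 and 1 count and then 12, 13 and 14. Each EZH2i library was above each DMSO library for these 3 genes, and p53n libraries had no count for any of them. Among the untested genes, Hoxd9 went from 1, 0 and 0 counts to 16, 7 and 16, Hoxc10 from 1, 0 and 0 to 7, 7 and 14, and Hoxc9 from 1, 0 and 0 to 6, 8 and 10. Scaled for depth, the ratio of summed counts was 59.8 for Hoxd9 with a 95% counting interval from 10.1 to 2421, 42.9 for Hoxc10 (7.10 to 1755) and 36.8 for Hoxc9 (6.00 to 1513). These levels stayed low: the highest of the 6, Hoxb13, reached 2.46, 2.93 and 2.66 CPM. Genes of a Hox cluster overlap, so a part of the reads of neighbours such as Hoxc4, Hoxc9 and Hoxc10 cannot be assigned without strand.

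The other 22 near-silent Hox genes stayed under 20 counts over the EZH2i libraries. Of the 11 Hox genes that DMSO cells already expressed, 10 were tested, with 4 higher and 0 lower in the plain fit (median 0.10) and 1 and 6 in the corrected fit (median -0.27). Hoxd8, of the same cluster as Hoxd9 and Hoxd13, rose from 0.597, 1.10 and 0.740 CPM to 3.13, 4.85 and 3.52 CPM (2.22 and 1.47), and it was the only one of the 10 tested that rose in both fits. The corrected count of 6 was 3 without DMSO library 3 or without EZH2i library 1, and 1 gene was lower in the plain fit without EZH2i library 3. Hoxa5, the most abundant, was at 23.4, 24.2 and 24.7 CPM in DMSO and at 23.3, 24.5 and 21.2 CPM in EZH2i. The groups overlapped, the plain change was -0.07 (adjusted p = 0.54), and the corrected one was -0.35. Hoxa13 was at 1.49, 1.36 and 1.20 CPM and then 0.832, 1.01 and 0.761 CPM, with -0.64 (adjusted p = 0.077) and -1.21.

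**Figure D3:**
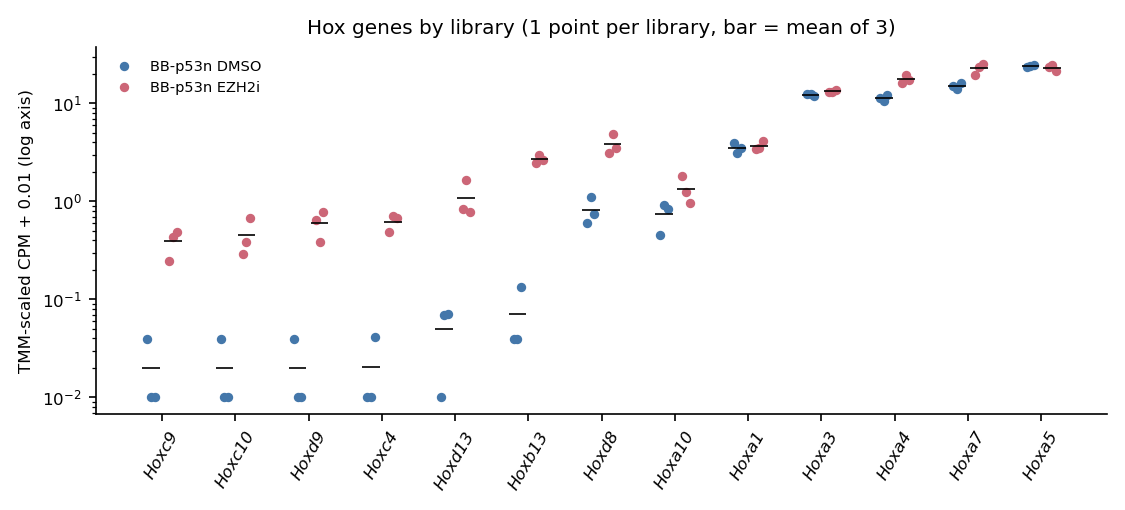
TMM-scaled CPM plus 0.01 (log axis) of 13 Hox genes, 1 point per library and a bar at the mean of 3. The 6 genes at left are near 0 in DMSO and detected in all 3 EZH2i libraries, Hoxd8 is higher in EZH2i, and the 6 Hoxa genes at right are expressed in both groups.

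Promoter sequences of the 2 leading genes in each direction were read because PRC2 is known to settle on CG-rich promoters of silent genes. Each window runs from 250 bases before to 50 bases after the gene's first listed start, 5′ to 3′ on the gene's strand, from RefSeq on GRCm38.p6, and capitals mark CG dinucleotides. Bc1 (chr7:144914220-144914519, plus strand, 7 CG) and Paqr7 (chr4:134496511-134496810, plus strand, 7 CG) rose, and Scg2 (chr1:79439977-79440276, minus strand, 16 CG) and Ppp3r2 (chr4:49681934-49682233, minus strand, 11 CG) fell. Hoxd13 (chr2:74667975-74668274, plus strand, 37 CG) and Hoxc4 (chr15:103034145-103034444, plus strand, 9 CG), near-silent in DMSO, and Hoxa5 (chr6:52204538-52204837, minus strand, 29 CG), expressed in both groups, were added after their values were seen.
Bc1: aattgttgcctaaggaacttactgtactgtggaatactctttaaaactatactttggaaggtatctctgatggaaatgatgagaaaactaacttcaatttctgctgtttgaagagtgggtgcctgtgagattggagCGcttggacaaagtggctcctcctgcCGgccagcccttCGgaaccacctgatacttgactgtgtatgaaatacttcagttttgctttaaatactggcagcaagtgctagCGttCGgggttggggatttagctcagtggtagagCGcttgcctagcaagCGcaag
Paqr7: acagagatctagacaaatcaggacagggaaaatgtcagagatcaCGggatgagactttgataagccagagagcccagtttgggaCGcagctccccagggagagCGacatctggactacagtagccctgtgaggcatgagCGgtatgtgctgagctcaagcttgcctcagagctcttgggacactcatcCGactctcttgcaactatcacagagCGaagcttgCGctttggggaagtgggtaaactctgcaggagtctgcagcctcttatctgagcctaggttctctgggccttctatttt
Scg2: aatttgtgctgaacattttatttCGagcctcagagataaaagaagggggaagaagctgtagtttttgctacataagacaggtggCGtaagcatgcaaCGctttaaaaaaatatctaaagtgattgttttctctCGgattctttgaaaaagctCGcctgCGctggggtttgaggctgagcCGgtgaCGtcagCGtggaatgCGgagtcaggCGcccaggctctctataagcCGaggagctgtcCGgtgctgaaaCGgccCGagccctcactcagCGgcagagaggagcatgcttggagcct
Ppp3r2: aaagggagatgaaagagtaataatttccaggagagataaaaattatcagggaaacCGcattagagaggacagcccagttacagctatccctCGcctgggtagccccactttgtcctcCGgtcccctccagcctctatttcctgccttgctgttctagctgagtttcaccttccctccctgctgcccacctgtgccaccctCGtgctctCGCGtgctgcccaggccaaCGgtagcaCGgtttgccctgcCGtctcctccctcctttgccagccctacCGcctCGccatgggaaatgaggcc
Hoxd13: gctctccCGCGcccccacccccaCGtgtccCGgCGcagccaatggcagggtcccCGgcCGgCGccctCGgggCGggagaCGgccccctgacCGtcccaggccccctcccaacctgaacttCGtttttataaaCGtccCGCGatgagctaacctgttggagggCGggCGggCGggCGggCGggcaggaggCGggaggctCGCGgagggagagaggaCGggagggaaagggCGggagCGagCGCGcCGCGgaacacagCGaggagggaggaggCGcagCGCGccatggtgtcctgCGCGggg
Hoxc4: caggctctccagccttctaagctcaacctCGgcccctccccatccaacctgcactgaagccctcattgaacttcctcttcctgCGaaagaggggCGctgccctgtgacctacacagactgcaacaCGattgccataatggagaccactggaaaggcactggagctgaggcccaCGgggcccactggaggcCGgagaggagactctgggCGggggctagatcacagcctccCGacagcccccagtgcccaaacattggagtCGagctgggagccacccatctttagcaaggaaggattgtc
Hoxa5: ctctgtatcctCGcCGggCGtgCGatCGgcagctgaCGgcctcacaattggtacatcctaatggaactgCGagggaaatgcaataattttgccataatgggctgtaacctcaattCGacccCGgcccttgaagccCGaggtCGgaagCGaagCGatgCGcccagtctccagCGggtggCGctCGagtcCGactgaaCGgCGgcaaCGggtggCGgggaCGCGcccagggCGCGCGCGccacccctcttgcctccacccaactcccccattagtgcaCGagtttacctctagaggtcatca
The next windows by rank held 0 CG (Sqor) and 11 CG (Ndn) among the rises and 21 CG (Far2) and 6 CG (Slc24a5) among the falls, and that of Hoxd8 held 6. The count thus ran from 0 to 11 over the 4 rises and from 6 to 21 over the 4 falls.

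Over all genes the CG count of the promoter showed no monotonic relation with the change. Of 27025 windows the median held 7 CG, and the 11299 windows of tested genes a median of 21. Genes that rose had a median of 20 CG (2493 windows), genes that fell 23 (2288 windows), and genes that passed in neither fit 15 (1626 windows). Among genes changed at least 2-fold in both fits the order was opposite, with medians of 18 for the rises (305 windows) and 14 for the falls (444 windows). Spearman's rho across the 11299 genes, which are not independent replicates, was -0.01 between CG count and the plain log2 fold change and 0.00 with the corrected one. The letters TATAAA, read on both strands, stood in 14.2% of all windows, in 6.76% of those of tested genes, in 6.78% of windows of genes that rose and in 5.73% of those of genes that fell.

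Other developmental transcription factors moved both ways. Of 140 listed genes 91 were tested, with 38 higher and 21 lower in the plain fit (median 0.29), 20 and 34 in the corrected fit (median -0.12), and 15 each way in both. Irx2, an Iroquois homeobox gene, was at 51.3, 52.2 and 48.4 CPM and then 44.6, 39.9 and 36.6 CPM, a fall of -0.33 and -1.09. Sall1, a zinc finger repressor gene, also fell (-0.25 and -0.51; -0.13 and not passing with a trend on length only). Germline genes, which other repressive systems silence, stayed low: 2 of 15 were tested, neither passed in either fit (medians 0.12 and 0.44), and their summed level was 0.740 to 1.27 CPM in DMSO and 0.639 to 0.912 CPM in EZH2i. Crhr2, a corticotropin-releasing hormone receptor gene, had 2 counts over the DMSO libraries and 16, 12 and 18 in the EZH2i libraries, and with Hoxc4 it was 1 of 2 named genes with at most 3 counts in DMSO and at least 10 in every EZH2i library. In the reverse sense there were 8, led by Zfp781 with 30, 20 and 19 counts in DMSO and 2 over the EZH2i libraries (ratio 22.5, 95% counting interval 6.00 to 190).

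Imprinted genes are expressed from 1 parental copy, and some depend on PRC2 for the silence of the other. Of 26 listed genes 20 were tested, with 8 higher and 10 lower in the plain fit (median -0.31), 9 and 9 in the corrected fit (median -0.15), and 8 each way in both. Magel2, the neighbour of Ndn, had 1, 2 and 0 counts in DMSO and 13, 1 and 18 in EZH2i. Library EZH2i 2 was at the DMSO level, the groups overlapped, and the change was 3.82 and 3.15, the corrected call being lost without EZH2i library 3 (2.55, adjusted p = 0.052). In the cluster on chromosome 12 the paternally expressed Dlk1 and Rtl1 and the maternally expressed noncoding Meg3 all fell. Rtl1 went from 0.746, 1.01 and 0.864 CPM to 0.0396, 0.106 and 0.333 CPM (-2.46 and -2.87), and Meg3 from 10.4, 7.40 and 9.10 CPM to 3.88, 3.04 and 4.09 CPM (-1.28 and -0.56, the latter lost without DMSO library 1 at -0.44, adjusted p = 0.070, and with a trend on length only at -0.11). On chromosome 6 the adjacent genes Sgce and Peg10 went in opposite directions: Sgce rose by 0.39 and 2.09, and Peg10 fell from 252, 238 and 246 CPM to 126, 122 and 122 CPM (-0.99 and -0.62). Peg3, a zinc finger gene on chromosome 7, fell (-1.33 and -0.52).

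Class I antigen presentation genes encode the surface molecules that show peptides to T cells and the transporter and proteasome subunits that supply them. Of 16 tested genes 9 were higher and 3 lower in the plain fit (median 0.63), 7 and 4 in the corrected fit (median 0.32), and 6 rose and 2 fell in both. H2-D1 (chromosome 17, 35481706 to 35486475) was at 6.24, 5.12 and 5.67 CPM in DMSO and at 26.2, 22.8 and 26.4 CPM in EZH2i, a change of 2.15 and 1.38. H2-K1 went from 7.85, 6.75 and 7.96 CPM to 21.7, 23.9 and 20.2 CPM (1.54 and 0.89), and Tap1, a subunit of the peptide transporter, from 1.22, 1.69 and 1.60 CPM to 5.43, 5.33 and 4.90 CPM (1.79 and 1.23). All 3 genes separated the groups, as 75.3% of all tested genes did by plain CPM. Psmb9, an immunoproteasome subunit beside Tap1, came from 0.0896, 0.0296 and 0 CPM and reached 0.674, 0.532 and 0.523 CPM (3.71 and 3.14), and H2-T22 rose by 1.07 and 0.79. Psmb9 is among the 6 genes that rose, but between DMSO and EZH2i only the EZH2i libraries could take it past the filter for testing. The 2 members that fell, Pdia3 (-0.55 and -0.40) and Canx (-1.08 and -0.20; -0.08 and not passing with a trend on GC content only), encode folding helpers of the endoplasmic reticulum that serve many proteins. The corrected count of 4 lower genes was 2 without DMSO library 2 or 3. Class I genes have near-identical copies, so the split of counts among H2-D1, H2-K1 and H2-T22 is uncertain.

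Interferon factors and stimulated genes did not move as a list. Of 25 tested genes 8 were higher and 5 lower in the plain fit (median -0.02), 5 and 4 in the corrected fit (median -0.07), and 3 rose and 2 fell in both. These counts were small and moved with single libraries: the plain count of higher genes was 5 without DMSO library 3 or EZH2i library 3, and the corrected one 2 without DMSO library 2 or EZH2i library 3 and 3 without DMSO library 1. The plain count of lower genes was 3 without DMSO library 2, and the corrected one 2 without EZH2i library 1. Irf8, an interferon regulatory factor of immune cells, rose from 0.627, 0.711 and 0.463 CPM to 3.09, 2.29 and 3.19 CPM (2.25 and 2.11). Ifit2, induced by type I interferon, fell from 33.4, 29.0 and 30.6 CPM to 13.8, 10.4 and 13.2 CPM (-1.31 and -0.48).

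Cell cycle genes were read by phase. Of 36 S phase genes 28 were higher and 5 lower in the plain fit (median 0.59), 29 and 2 in the corrected fit (median 0.42), and 24 rose and 2 fell in both. Rfc3, a subunit of the clamp loader of DNA replication, was at 66.7, 71.4 and 67.5 CPM in DMSO and at 115, 112 and 121 CPM in EZH2i, with 0.76 and 1.43. Pola2, of DNA polymerase alpha, went from 67.2, 70.9 and 72.2 CPM to 114, 126 and 124 CPM (0.79 and 1.30). Both rose in all 3 EZH2i libraries, and Rfc4 rose likewise (0.82 and 1.32). Of 10 tested replication-dependent histone genes 7 were higher and 0 lower in the plain fit (median 0.55), 4 and 0 in the corrected fit (median 0.43), and 3 rose in both, with Hist1h1c at 40.8, 43.3 and 38.0 CPM and then 130, 130 and 131 CPM (1.68 and 0.89). The plain count of 7 was 3 without DMSO library 3 and 4 without EZH2i library 2, and since transcripts of these genes mostly lack poly(A) tails, a poly(A) library counts few of them.

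Of 35 G2 and M phase genes 14 were higher and 19 lower in the plain fit (median -0.25), 13 each way in the corrected fit (median -0.03), and 9 rose and 13 fell in both. The members differed in direction. Aspm, a spindle pole gene, fell beside Mki67, from 282, 232 and 255 CPM to 56.8, 34.8 and 47.0 CPM (-2.46 and -1.42). Birc5, the survivin gene of the chromosomal passenger complex, rose from 123, 133 and 131 CPM to 191, 216 and 199 CPM (0.65 and 0.76), and Cenpa, the centromeric histone, rose by 0.58 and 0.70. The exons of Aspm (11590 bases) and Mki67 (10061 bases) are longer than those of Birc5 (3402 bases) and Cenpa (5860 bases). These 4 ranked first among the members called alike in both fits, so their unchanged direction follows from that choice. In the same list 2 genes, Mad2l1 and Prc1, were lower in the plain and higher in the corrected fit.

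Among 19 cyclins and CDKs of G1 and their partners, 7 were higher and 8 lower in the plain fit (median -0.04), 7 and 6 in the corrected fit (median 0.00), and 4 each way in both. The 4 each way were near the shares over all genes (20.2% that rose and 21.1% that fell). Ccne1 (cyclin E1) rose by 1.13 and 0.59 and its kinase Cdk2 by 0.57 and 0.71. E2f3, an activator of S phase genes, fell (-0.82 and -0.83), and Rb1, which restrains E2F factors, went from 31.9, 28.7 and 30.1 CPM to 9.59, 6.76 and 8.42 CPM (-1.86 and -0.78). Of 7 CDK inhibitor genes 5 were higher and 1 lower in the plain fit (median 0.35), 2 and 3 in the corrected fit (median -0.17), and 2 rose and 0 fell in both; the corrected count of 2 was 1 without DMSO library 2 or 3 or EZH2i library 1, and the plain count of 1 was 2 without EZH2i library 2. Cdkn1a (p21) went from 31.1, 33.1 and 34.0 CPM to 68.4, 67.4 and 80.1 CPM (1.14 and 0.51). Cdkn2a, whose locus is a known PRC2 target, was at 65.3, 69.4 and 62.4 CPM and then 77.2, 70.0 and 82.2 CPM. It passed as higher in the plain fit (0.22, adjusted p = 0.013, lost without DMSO library 3 or EZH2i library 3 at 0.18 and 0.16) and as lower in the corrected fit (-0.76), so its direction depended on the correction.

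The Trp53 transcript was at 13.8, 12 and 14.9 CPM in DMSO and at 14.7, 13 and 15.2 CPM in EZH2i, a plain change of 0.08 (adjusted p = 0.56) and a corrected one of -0.43 (adjusted p = 0.003). The groups overlapped, and the part of the gene that is missing in these cells is not given in the labels. Of 23 p53 target genes 11 were higher and 8 lower in the plain fit (median 0.23), 6 each way in the corrected fit (median 0.12), and 5 each way in both. Those 5 each way were near the shares over all genes, 20.2% that rose and 21.1% that fell. Ei24 rose from 119, 134 and 129 CPM to 204, 244 and 233 CPM, and Trp53inp1 fell from 22.1, 16.7 and 20.1 CPM to 4.76, 2.29 and 4.42 CPM. Their changes were 0.83 and 0.73 and -2.33 and -0.96.

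OPC markers were lower after correction in most members. Of 23 tested markers 10 were higher and 11 lower in the plain fit (median -0.00), 3 and 16 in the corrected fit (median -0.35), and 2 rose and 10 fell in both; without EZH2i library 2 the corrected count of higher markers was 5. Gpr17, a receptor gene of precursors at the step to differentiation, went from 119, 137 and 139 CPM to 57.8, 64.3 and 51.2 CPM (-1.19 and -1.61). Vcan, a proteoglycan of the OPC surface and matrix, fell from 583, 520 and 554 CPM to 147, 133 and 143 CPM (-1.97 and -0.71), and Pdgfra from 957, 996 and 989 CPM to 485, 556 and 500 CPM (-0.93 and -0.46). All 3 separated the groups, as 75.3% of all tested genes did by plain CPM. Cspg5, another proteoglycan gene, rose from 384, 413 and 391 CPM to 634, 683 and 684 CPM (0.75 and 0.85). The lineage factors Olig1, Olig2 and Sox10 depended on the correction: Olig1 changed by 0.59 and -0.30. Olig2 was at 785, 825 and 806 CPM and then 974, 801 and 908 CPM (0.15, adjusted p = 0.065, and -0.71; 0.23 and passing in the plain fit without EZH2i library 2), and Sox10 at 297, 317 and 284 CPM and then 452, 454 and 470 CPM (0.62 and -0.22).

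Genes of committed precursors and myelin had 11 higher and 6 lower of 26 in the plain fit (median 0.11), 9 and 8 in the corrected fit (median -0.02), and 9 rose and 3 fell in both. Trf, the transferrin gene of oligodendrocytes, went from 6.66, 6.10 and 7.49 CPM to 30.4, 36.8 and 35.4 CPM (2.34 and 1.86), and Enpp2, the autotaxin gene, from 49.4, 52.0 and 52.1 CPM to 25.4, 24.3 and 26.4 CPM (-1.01 and -0.40). Of 18 astrocyte markers 8 were higher and 7 lower in the plain fit (median -0.06), 4 each way in the corrected fit (median 0.01), and 2 rose and 3 fell in both. Acsbg1 rose (1.18 and 0.50), and Slc4a4 (-1.72 and -0.90) and Sox9 (-0.39 and -0.47) fell. Of 17 neuron markers 6 were higher and 8 lower in the plain fit (median -0.55), 6 each way in the corrected fit (median -0.12), and 5 each way in both. Syp, the synaptophysin gene, went from 8.63, 8.44 and 8.48 CPM to 24.2, 33.3 and 30.4 CPM (1.78 and 2.29). Elavl3 (-0.81 and -1.16), Gap43 (-0.60 and -0.90) and Map2 (-1.67 and -0.88) fell, so no uniform neuronal change was seen.

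Markers of cell types that an OPC culture could hold as admixture stayed low. Microglia markers had 3 of 12 tested, with 1 higher and 1 lower in the plain fit (median 0.36) and 1 and 0 in the corrected fit (median 0.25), and C1qa, C1qb and C1qc had no count in any of the 6 libraries. Endothelial markers had 4 of 8 tested, with 1 each way in the plain fit (median -0.08) and 2 higher in the corrected fit (median 0.22), 1 of them in both, and summed levels of 19.7 to 22.9 and 19.6 to 21.9 CPM. Mural cell and fibroblast markers had 5 of 11 tested, with 0 higher and 1 lower in the plain fit (median 0.60), none passing in the corrected fit (median 0.02), and sums of 1.82 to 3.11 and 2.29 to 3.09 CPM. These small counts moved with single libraries: all 3 plain counts of 1 lower marker were 0 without DMSO library 2. The microglial one was also 0 without DMSO library 1 or EZH2i library 2 or 3, and the endothelial one without DMSO library 3 or EZH2i library 3. The endothelial count of 2 was 1 without DMSO library 1 or 3 or EZH2i library 2 or 3, and 1 mural marker passed as lower in the corrected fit without EZH2i library 1.

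All 5 sex-linked genes were lower in EZH2i in the plain fit (median -2.42), and 4 in the corrected fit (median -0.80). Xist, the noncoding RNA of the inactive X chromosome, was at 54.8, 46.2 and 65.0 CPM in DMSO and at 6.38, 2.82 and 17.4 CPM in EZH2i, against 2981 ± 177 CPM in p53n. Its change was -2.63 and -0.97 (adjusted p = 0.13), the corrected one passing without EZH2i library 3 (-1.90). Eif2s3y, on the Y chromosome, was at 55.1, 38.1 and 48.6 CPM and then 12.7, 7.67 and 9.18 CPM, against 0.518 ± 0.0669 CPM in p53n, with -2.25 and -0.80. DMSO libraries thus held both an X-inactivation transcript and Y-linked transcripts, and both kinds were lower in EZH2i. Whether the DMSO and EZH2i libraries held the same mixture of lines was not tested.

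Signalling genes were examined by their roles. Of 5 tested PDGF ligand and receptor genes 0 were higher and 3 lower in each fit (medians -0.43 and -0.46), and Pdgfra and the ligand gene Pdgfc (-0.43 and -0.60) fell in both. Without DMSO library 1 the plain count of higher genes was 1. Pdgfb itself had 4, 8 and 4 counts in DMSO and 6, 4 and 3 in EZH2i and was not tested. The PDGF-BB expression that names these cells was thus not seen in the counts of this gene. Whether transcripts of the construct would be counted under Pdgfb is not known. Of 26 ERK feedback and growth factor response genes 10 were higher and 5 lower in the plain fit (median 0.05), 6 and 12 in the corrected fit (median -0.23), and 4 rose and 3 fell in both; the plain count of 5 was 8 without EZH2i library 1, and the corrected count of 6 was 3 without DMSO library 1. Spred2, an inhibitor of the RAS-ERK pathway, fell from 209, 211 and 207 CPM to 134, 128 and 126 CPM (-0.69 and -0.96). Fosb, an immediate early gene, rose from 0.328, 0.237 and 0.648 CPM to 2.5, 1.33 and 1.28 CPM (2.09 and 1.58).

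Notch, BMP and Id genes had 6 higher and 16 lower of 29 in the plain fit (median -0.31), 2 and 18 in the corrected fit (median -0.42), and 2 rose and 13 fell in both. Bmpr2, the type II BMP receptor, went from 243, 221 and 231 CPM to 42.3, 25.3 and 34.2 CPM (-2.76 and -1.06). Jag1, a Notch ligand, fell from 76.1, 74.9 and 78.2 CPM to 46.3, 39.6 and 48.1 CPM (-0.77 and -0.66), and Hey1, a Notch target, from 21.6, 24.1 and 21.3 CPM to 18, 18.1 and 17.8 CPM (-0.32 and -0.81). Receptor, ligand and target genes were thus among those that fell. Their groups did not overlap, as in 75.3% of all tested genes by plain CPM. Of 27 Wnt genes 15 were higher and 4 lower in the plain fit (median 0.46), 11 and 5 in the corrected fit (median 0.08), and 11 rose and 4 fell in both, the corrected count of 11 being 7 without DMSO library 1. Lrp6, a Wnt co-receptor, fell (-1.88 and -0.96), as did Znrf3, a feedback ubiquitin ligase (-0.86 and -0.83), and Apcdd1, an extracellular Wnt inhibitor, rose (0.46 and 1.06).

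Metabolic genes were read in 3 lists. Of 25 glycolysis and hypoxia genes 19 were higher and 2 lower in the plain fit (median 0.66), 14 and 2 in the corrected fit (median 0.22), and 13 rose and 2 fell in both, the plain count of 2 being 1 without DMSO library 2 or 3 or EZH2i library 3. Pfkp, the platelet-type phosphofructokinase, went from 57.9, 60 and 53.9 CPM to 85.9, 92.9 and 96.3 CPM (0.68 and 1.33), and the neuronal-type glucose transporter Slc2a3 from 20.6, 19.8 and 23.5 CPM to 35.2, 34.5 and 36.1 CPM (0.73 and 1.11). Of 25 ATF4 and amino acid response genes 20 were higher and 4 lower in the plain fit (median 0.80), 17 and 4 in the corrected fit (median 0.32), and 14 rose and 2 fell in both. Psph, of serine synthesis, went from 64.1, 65.4 and 65.5 CPM to 136, 144 and 142 CPM (1.11 and 1.01), Psat1 of the same pathway rose by 0.80 and 0.83, and Cth, of cysteine synthesis, by 1.35 and 1.83. Of 25 cholesterol synthesis genes 12 were higher and 11 lower in the plain fit (median 0.14), 7 and 8 in the corrected fit (median 0.05), and 5 rose and 6 fell in both. This 5 and 6 lay near the 20.2% and 21.1% of all genes that rose and fell. Hmgcs1, an early enzyme, fell from 793, 640 and 708 CPM to 275, 247 and 220 CPM (-1.53 and -0.78), as did Idi1 (-1.64 and -0.82), and Nsdhl, a late one, was at 189, 169 and 189 CPM and then 219, 234 and 205 CPM (0.27 and 0.56; 0.04 and not passing with a trend on length only).

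Of 30 extracellular matrix and mesenchymal genes 11 were higher and 10 lower in the plain fit (median -0.02), 9 and 10 in the corrected fit (median -0.11), and 8 rose and 6 fell in both. Col4a2, of basement membrane collagen, went from 8.99, 9.59 and 8.85 CPM to 30.8, 30.3 and 30.3 CPM (1.73 and 1.15), and Col6a1 from 10.3, 15.1 and 11.9 CPM to 5.51, 6.55 and 3.66 CPM (-1.25 and -1.93). Anxa2 rose (1.19 and 0.81), and Nes, the intermediate filament gene of neural progenitors, fell (-0.50 and -0.98; -0.21 and adjusted p = 0.050 with a trend on length only).

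Of 79 cytosolic ribosomal protein genes 59 were higher and 4 lower in the plain fit (median 0.74), 35 and 5 in the corrected fit (median 0.27), and 33 rose and 0 fell in both, although their many pseudogene copies make single values uncertain. The corrected count of 5 was 3 without DMSO library 1 or EZH2i library 3. Rps3 rose from 499, 553 and 503 CPM to 938, 1095 and 1055 CPM (0.99 and 1.04), and Rpsa by 1.13 and 0.83. The 13 protein genes of the mitochondrial genome had 0 higher and 12 lower in the plain fit (median -0.98) and 3 each way in the corrected fit (median 0.02), with 3 falling in both, and the corrected count of 3 higher genes was 1 without DMSO library 1. The gene mt-Nd4l, which overlaps its neighbour, was at 7.08, 6.72 and 11.1 CPM and then 2.10, 0.852 and 1.47 CPM (-2.44 and -1.85). Their median GC content was 37.1%, in the range of the lowest GC class (31.0% to 41.2%). Synaptic adhesion and channel genes of long loci had 3 higher and 39 lower of 46 in the plain fit (median -1.14), 12 and 23 in the corrected fit (median -0.30), and 2 rose and 22 fell in both. Cntn1, a contactin gene, went from 3611, 3225 and 3403 CPM to 1103, 851 and 926 CPM (-1.83 and -0.81), and Erbb4, a neuregulin receptor gene, from 76.5, 68.7 and 70.3 CPM to 15.4, 8.73 and 11.3 CPM (-2.59 and -1.06). Both fell in every EZH2i library in both fits.

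**Figure D4:**
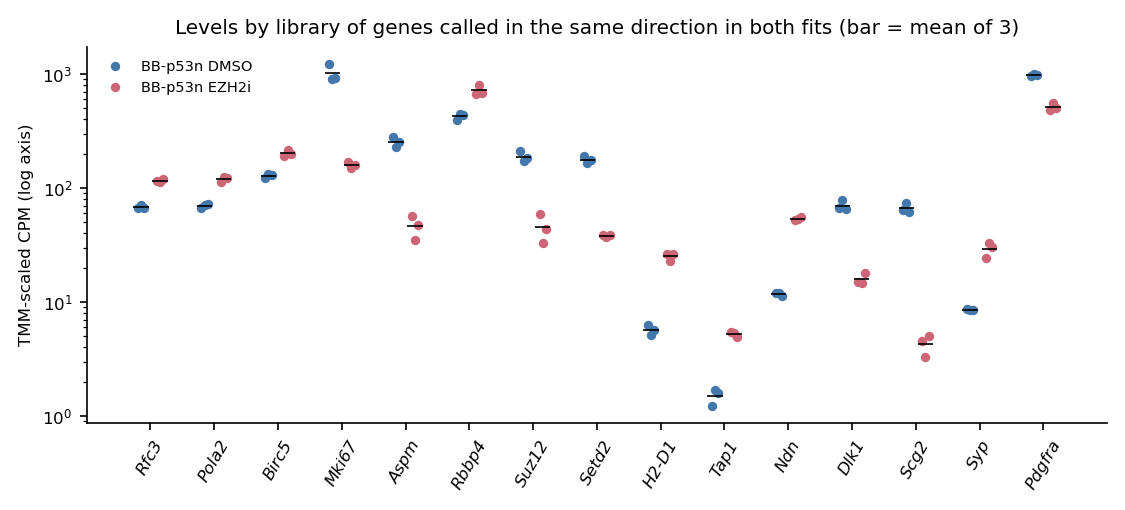
TMM-scaled CPM (log axis) of 15 genes that passed in the same direction in both fits, 1 point per library and a bar at the mean of 3. No gene shown has an EZH2i library within the range of the DMSO libraries.

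**Figure D5:**
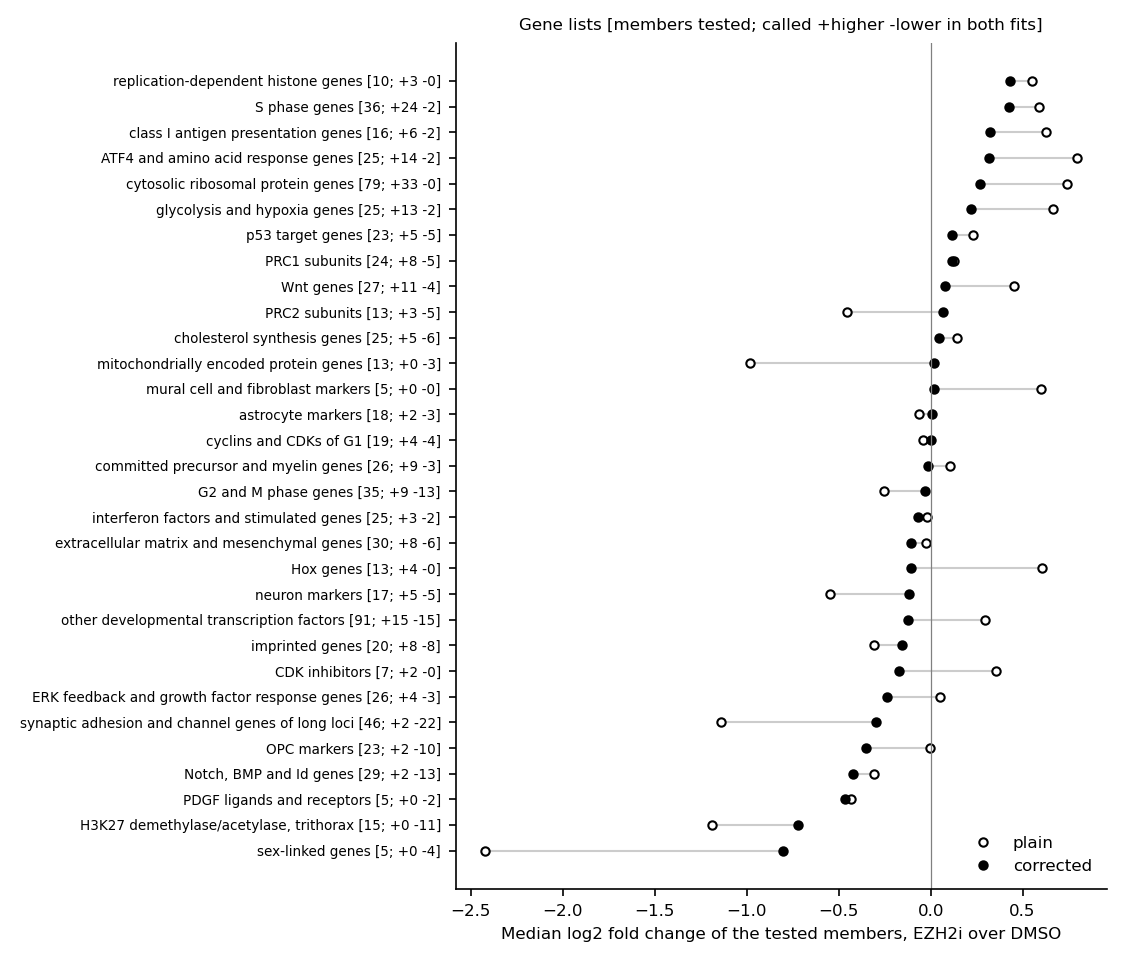
Median plain (open) and corrected (filled) log2 fold change of the tested members of each gene list with at least 5 of them, with the members tested and those called higher and lower in both fits in brackets. Lists of GC-poor or long genes move towards 0 with the correction. The sex-linked, trithorax, Notch, PDGF, synaptic, imprinted, neuron, OPC, matrix, interferon and G2 and M phase lists lie below 0 in both fits, some only slightly. The Hox list holds 3 genes that could pass the filter only through EZH2i.

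Some named genes turned with the correction. Kcnq1ot1, a long noncoding RNA of an imprinted domain, was at 26.4, 23.1 and 28.5 CPM in DMSO and at 9.63, 7.83 and 8.75 CPM in EZH2i, a plain change of -1.56 and a corrected one of 1.32. Its corrected value also turned with the shape of the trend, at -0.04 with medians in bins in place of smooth curves. Sorbs2, an adaptor gene of the actin cytoskeleton, stood at -1.10 and 1.28. For such genes the measured level was lower in every EZH2i library, and the change was positive only after a trend on composition was removed. The corrected value of Sorbs2 stayed positive in every alternative setting (0.40 to 1.36). That of Kcnq1ot1 depended on the form of the trend.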

How the data were processed

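Raw counts per gene in 9 libraries were used as deposited. Per the file headers, the authors made these counts with featureCounts 1.6.3 over exons, with both read ends mapped, a mapping quality of at least 20, gene models from Ensembl release 108 (GRCm39) and strand ignored, so antisense and overlapping genes share reads, and near-identical copies lose them. Per the submitters' processing notes, Trimmomatic and Subread were among the tools, and how reads were aligned is not given in the sources used here. Symbols, GC content and transcript classes came from GENCODE vM21 by gene identifier, for 52073 of 56980 genes (91.4%), and coordinates are those of the files.

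Genes were filtered with filterByExpr, scaled by TMM and tested with edgeR 4.0.16 in R 4.3.3 (robust quasi-likelihood test, Benjamini-Hochberg adjustment) over all 9 libraries. The corrected fit added offsets with each library's spline (5 degrees of freedom each) on GC content and log2 exon length, fitted on genes with an average log2 CPM above 1; 349 genes without GC content were left out of it. Calls used an adjusted p of 0.05. Both fits were also run on simulated counts built with the same trend that the corrected fit removes. That run cannot show whether the trend in these data is technical, and its outcome is not used here. Total counts ranged from 19471768 to 34557109, and 3 counts correspond to 0.0868 to 0.154 CPM in the 6 libraries compared. Counting intervals are exact at 95% and cover counting error only. No replicate pair was identical.

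Members, gene lists (953 of 980 entries matched) and tests were chosen with earlier results of these data known. Named genes are the 12 largest rises and 12 largest falls by the smaller of both fold changes, among genes called alike in both fits, of average log2 CPM 1 or more and with no overlap of groups; up to 4 members per list with the smallest corrected p called alike in both fits and up to 2 turned; genes with at most 3 counts in one group and at least 10 in every library of the other; the largest turned genes; and Ezh2, Ezh1, Eed, Suz12, Trp53, Pdgfb, Pdgfra, Mki67 and the sex-linked genes. The average log2 CPM of the first rule was taken over all 9 libraries, p53n included. A part of the genes so chosen is printed. Just inside and outside the first rule stood Kyat3 (smaller change 1.97) and Tspan33 (1.93), and Stxbp3-ps (-1.90) and Zc3h11a (-1.88). Phf19, Jarid2, Olig1, Olig2, Sox10, Cspg4, Rbfox3, Gfap, Aqp4, Mog, the Hox genes other than Hoxb13, Hoxd13, Hoxc4 and Hoxd8, Magel2, Rtl1, Meg3, Peg3, Tap1, Psmb9 and Canx were added after their values were seen. Alternatives were other scalings, filters, DESeq2 1.42.0, fewer libraries or chromosomes, a replicate block, each library left out, and other forms of the trend.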

Additional observations from a re-analysis of the deposited data

How the results depend on the processing

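Genes called in the same direction in both fits (6881) ranged from 6027 to 7257 over the scalings, filters, library sets, DESeq2 and other trend forms, except that removing a trend on length alone left 10371, of which 5498 were higher. In each alternative 85.7% to 99.8% of these genes were called again in the same direction. Leaving out 1 library gave 6179 to 6908. Among genes with an average log2 CPM above 1, the median plain change was 0.61 in the shortest length class and -0.97 in the longest. Over all tested genes the difference between the highest and lowest length class was smaller, at -1.14.

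The numbers of the replicates gave correlations of 0.35, 0.28 and -0.01 between same-numbered libraries. Between DMSO and EZH2i libraries of different number the correlations ranged from -0.32 to 0.05. Not every same-numbered pair passed 0.1, the limit used here, so the numbers were not taken as pairing. Whether same-numbered libraries share a source is not known. With the replicate block the plain fit called 6271 genes higher and 5996 lower, and the fits together 3295 and 3456.

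For Trp53 the plain value turned to -0.024 without a filter, to -0.010 with 6 libraries only and to -0.0057 without chromosomes X, Y and MT, and ranged from -0.00021 to 0.15 with 1 library left out. With a trend on length only, corrected values turned for Trp53 (0.018), Olig1 (0.28), Sox10 (0.42) and Ezh2 (-0.31). With GC content only they turned for Ezh1 (-0.0018) and Kcnq1ot1 (-0.36) and Cspg4 (-0.37), and with bin medians for Kcnq1ot1 (-0.044) and Cspg4 (-0.10). The cause was not tested. With a trend on length only the corrected calls of Jarid2, Sall1, Meg3, Olig2, Nsdhl and Nes were lost, and with GC content only those of Canx and Hoxa5. Depth limits near-silent genes: 3 counts are up to 0.154 CPM.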

Other observations

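Families of genes outside the lists were counted after their values were seen, so the counts are descriptions only, beside a background of 20.2% of genes that rose and 21.1% that fell in both fits. Of 343 tested zinc finger genes named Zfp, most of them DNA-binding repressors, 22 rose and 157 fell in both fits, with medians of -0.88 and -0.30 in the plain and corrected fits. Of 53 clustered protocadherin genes, which give neural cells their surface identity, 0 rose and 23 fell (medians -0.68 and -0.61); these genes share exons, so their counts are uncertain. Kinesin genes had 7 rising and 18 falling of 36, deubiquitinase genes of the Usp family 6 and 23 of 48, and collagen genes 6 and 11 of 33.

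Housekeeping complexes moved the other way. Of 37 proteasome subunit genes 23 rose and 2 fell (medians 0.64 and 0.40), of 77 mitochondrial ribosomal protein genes 45 and 0 (0.68 and 0.32), and of 46 nuclear genes of respiratory complex I 25 and 0 (0.68 and 0.31). Tubulin genes had 8 rising and 0 falling of 11.

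Transcript classes were counted in the corrected fit, where 28.9% of all genes were higher and 28.8% lower. Protein-coding genes had 4405 higher and 3824 lower of 13506. Antisense transcripts had 46 and 201 of 575, and long intergenic RNAs 48 and 119 of 435. Processed pseudogenes had 193 and 303 of 959, and the annotation class TEC 52 and 173 of 541. The lower shares of protein-coding genes and long intergenic RNAs were near that of all genes. Counting ignored strand, so antisense values hold reads of the genes they overlap.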
